A study of Mus musculus with 8 samples.

Results

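The genes of the cytosolic ribosome were examined in *Setdb1* cKO and wildtype (WT) pachytene spermatocytes. They were taken by symbol (*Rpl* or *Rps* followed by a number and at most one of the letters a, x, y or l, *Rplp0* to *Rplp2*, and *Rpsa*) among protein-coding genes on standard chromosomes, with *Rpl10* and *Rpl10l* left out. This gave 78 genes, called members here, of 22603 genes measured: 47 of the 60S subunit (*Rpl* and *Rplp*) and 31 of the 40S subunit (*Rps* and *Rpsa*). Of the members, 75 are autosomal and 3 are on the X chromosome: *Rps4x*, *Rpl36a* and *Rpl39*. Some ribosomal protein genes fall outside the symbols, and 9 of these are described separately.

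RNA-seq was available for 2 cKO and 2 WT samples of early-to-mid pachytene cells sorted from testes of male mice by DNA content, each library being made from RNA of 500 cells by Smart-seq2. The study checked purity by staining test sorts from WT mice, in which part of the cells were not pachytene. It gives no purity for cKO sorts. The cKO mice were *Setdb1* flox/- males on C57BL/6J with an *Ngn3-Cre* transgene, bred from mothers homozygous for a *Gt(ROSA)26Sor* EYFP reporter. Within the testis this Cre acts only in the germ line, beginning in spermatogonia, and it is also expressed in gut and pancreas. The WT mice were C57BL/6J without Cre or floxed alleles. WT cells came from postnatal day 15, whereas cKO cells came from day 15 or later, so age cannot be told apart from genotype. No source says that the 2 samples of a genotype came from different animals, and p-values therefore measure only the spread between these samples.

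The ribosome is the particle that translates mRNA: the small, 40S subunit reads the codons and the large, 60S subunit joins amino acids. Each ribosomal protein is needed in about one copy per particle, and their genes are scattered over the genome, transcribed strongly in nearly all cells and accompanied by many processed pseudogenes. In male meiosis the X and Y fail to pair along most of their length and are silenced at the pachytene stage, which is called meiotic sex chromosome inactivation (MSCI). A few ribosomal proteins are X-encoded, and mammals carry autosomal copies related to them, several with strong testis expression. SETDB1 is a methyltransferase that adds H3K9me3, a repressive mark, and its deletion at meiosis is the perturbation studied here.

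The 3 X-encoded members each have an autosomal relative. *Rps4x* (chrX:102184941-102189394, minus strand, GRCm38) is paired with *Rps4l* (chr6:148354656-148355598, plus strand), which GENCODE annotates as a transcribed processed pseudogene, so that the symbol rule leaves it out. *Rpl39* (chrX:37082520-37085402, minus strand) is paired with *Rpl39l* (chr16:10170226-10174911, plus strand), and *Rpl36a* (chrX:134585654-134588062, plus strand) with *Rpl36al* (chr12:69182731-69184083, minus strand). Their sequences are shown because the comparison of X-encoded and autosomal copies depends on reads being able to separate them. Each line gives the start of the reading frame from the ATG, taken from GENCODE M21 transcripts, with the bases that differ within a pair in capitals. For *Rpl39* and *Rpl39l* the first 150 bases are shown, with 22 differences:
*Rpl39*: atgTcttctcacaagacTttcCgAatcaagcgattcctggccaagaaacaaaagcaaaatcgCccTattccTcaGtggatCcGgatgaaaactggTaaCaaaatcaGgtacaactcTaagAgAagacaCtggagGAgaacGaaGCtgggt
*Rpl39l*: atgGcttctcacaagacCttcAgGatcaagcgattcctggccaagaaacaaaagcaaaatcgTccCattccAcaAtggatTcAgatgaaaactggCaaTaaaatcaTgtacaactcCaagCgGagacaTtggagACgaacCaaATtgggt
For *Rps4x* and *Rps4l*, and for *Rpl36a* and *Rpl36al*, the first 90 bases are shown, with 15 and 14 differences:
*Rps4x*: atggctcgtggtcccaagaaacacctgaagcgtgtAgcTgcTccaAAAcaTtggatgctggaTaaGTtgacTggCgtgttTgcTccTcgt
*Rps4l*: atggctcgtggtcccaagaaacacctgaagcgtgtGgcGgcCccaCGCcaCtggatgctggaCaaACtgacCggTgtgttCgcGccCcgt
*Rpl36a*: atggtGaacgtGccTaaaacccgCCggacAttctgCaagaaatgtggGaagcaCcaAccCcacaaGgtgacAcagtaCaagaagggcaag
*Rpl36al*: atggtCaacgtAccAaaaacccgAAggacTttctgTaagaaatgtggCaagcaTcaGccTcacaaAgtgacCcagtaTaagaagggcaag

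Over the aligned coding bases, *Rpl39* and *Rpl39l* were 85.3% identical (23 differences in 156 bases), *Rpl36a* and *Rpl36al* 87.9% (39 in 321) and *Rps4x* and *Rps4l* 80.1% (157 in 789). The differences are spread out, so few stretches as long as the 31 bases that kallisto matches by default are common to a pair: 8 of the 126 in the *Rpl39* coding sequence, 5 of the 762 in *Rps4x* and 0 of the 291 in *Rpl36a*. The reading frame of *Rps4l* ran for 262 codons before a stop, against 263 in *Rps4x*. Sharing with pseudogenes is another matter. Of all such stretches in the transcripts of *Rps4x* and *Rpl36a*, 21.6% and 16.6% occur in no other protein-coding or pseudogene transcript, against 78.2% for *Rpl39*. The autosomal partners were more distinct, with 97.9% for *Rpl39l*, 76.6% for *Rpl36al* and 74.0% for *Rps4l*. Among the autosomal members the median was 59.2%. Members with low shares, 27 of 78 being under 50%, have levels that depend on how kallisto divided ambiguous reads.

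*Setdb1*, the targeted gene, was measured at 28.7 and 37.2 TPM in the cKO samples and at 56.9 and 59.3 TPM in the WT samples. Both cKO samples lie below both WT samples, with a log2 fold change of -0.81 ± 0.27 (SE) that did not reach the threshold used here (adjusted p = 0.269 by limma). Levels are the deposited TPM values (transcript abundance scaled to the library), which are divided by transcript length. They can be compared between genes, with less certainty for genes whose levels depend on how ambiguous reads were divided. Differences are cKO over WT on the log2(TPM + 1) scale by limma over 19462 genes, and a call is an adjusted p under 0.2. The table has no read counts, so depth is unknown. The replicates of the cKO differed more (r = 0.923 over these genes) than those of the WT (r = 0.974). The 20 most abundant genes outside the members took 19.9% and 16.2% of the TPM in cKO, and 32.5% and 13.3% in WT.

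Nearly all of the ribosomal protein genes were more abundant than the median gene of these cells, and no member was called higher or lower in the cKO. Over all genes tested 4.6% were called (895 of 19462), 3.48% being higher and 1.11% lower. The only member with an unadjusted p under 0.05 was 1 of the 40S, *Rps15*, and 13.6% of all genes were under that value. All 78 members passed the filter on low values, and 77 stood above the median tested gene in every sample, the exception being *Rpl3l*. By mean over the 4 samples, 55 members lay between 100 and 500 TPM, 13 above 500 TPM and 10 under 100 TPM, and the 3 X-encoded members were among these 10.

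**Figure D1:**
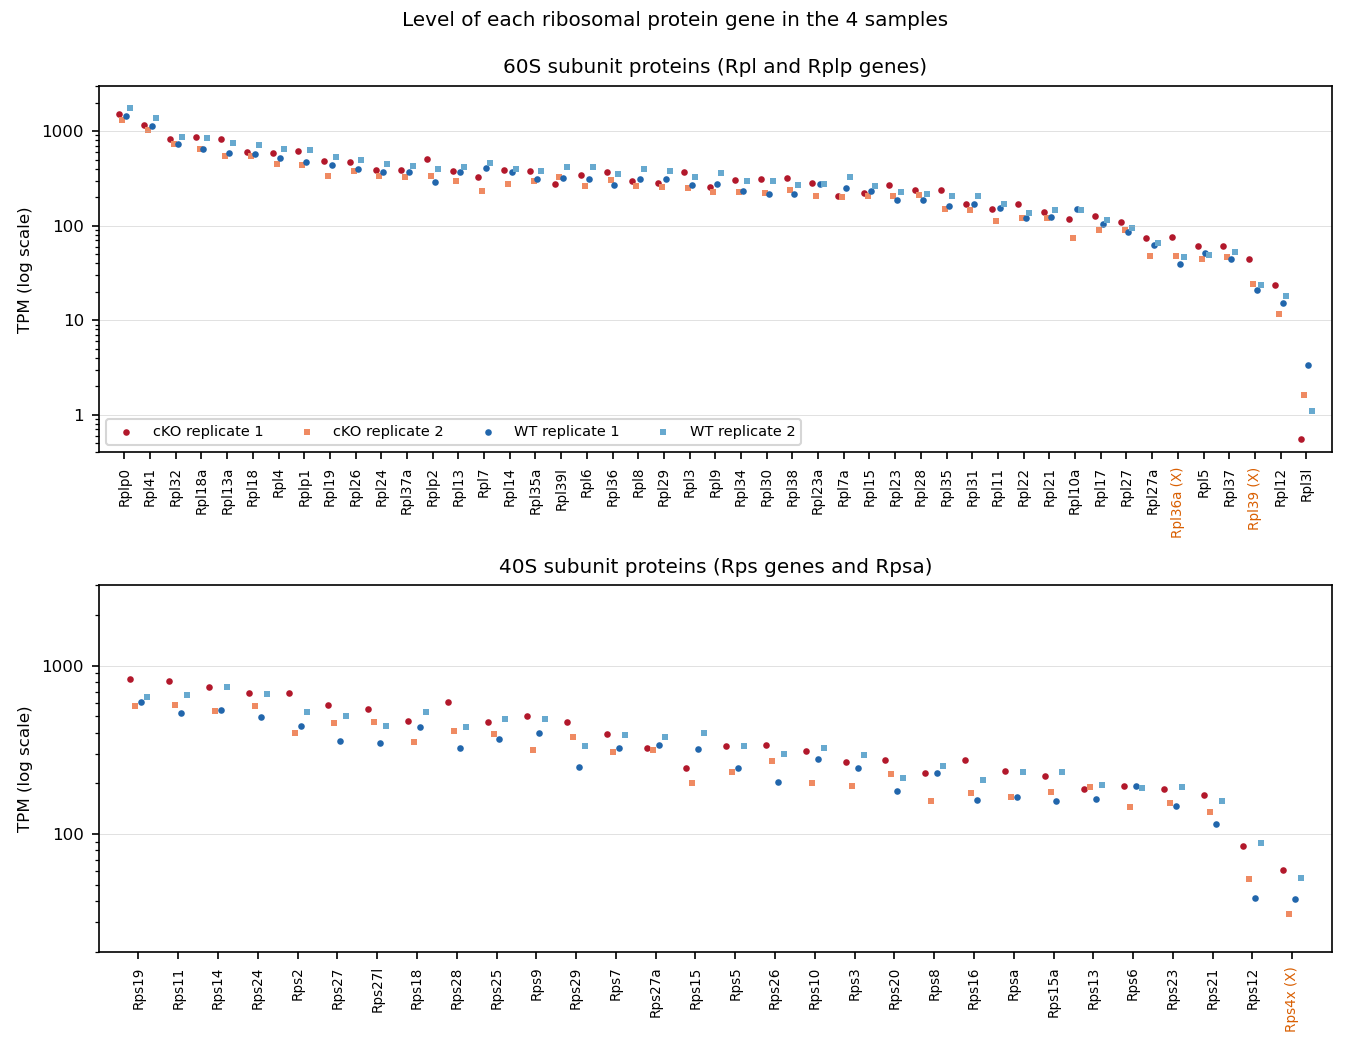
TPM (log axis) of the members in every sample, 1 of the 78 not being shown, with 60S genes above and 40S genes below, ordered by mean level; red circles and orange squares are cKO replicates 1 and 2, blue circles and light blue squares WT replicates 1 and 2, and X-encoded members have orange labels. The 3 X-encoded members sit at the low end of each panel, and the cKO and WT points of most members interleave.

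The highest level belonged to *Rplp0*, which carries the stalk that recruits translation factors. It stood at 1519 and 1304 TPM in cKO cells and at 1442 and 1735 TPM in WT cells, so the genotypes overlapped (log2 fold change -0.17 ± 0.33, SE). Next came *Rpl41*, whose product is a very short basic peptide at the subunit interface, with 1152 and 1019 TPM in cKO and 1146 and 1377 TPM in WT, and *Rpl32* with 831 and 726 TPM in cKO and 733 and 865 TPM in WT. Both genes also overlapped between genotypes. The other stalk proteins behaved alike in that respect: *Rplp1* had 613 and 434 TPM in cKO and 472 and 637 TPM in WT, and *Rplp2* had 504 and 336 TPM in cKO and 289 and 395 TPM in WT. *Rps27a*, which is translated as a fusion with ubiquitin, had 325 and 315 TPM in cKO and 339 and 377 TPM in WT, where both cKO values are the lower ones and the log2 fold change was -0.16 ± 0.24 (SE, adjusted p = 0.854).

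At the low end, *Rpl12*, which lies at the base of the stalk, had 23.4 and 11.6 TPM in cKO and 15.2 and 18.0 TPM in WT. *Rpl3l*, known as the striated muscle form of *Rpl3*, had 0.549 and 1.62 TPM in cKO and 3.35 and 1.11 TPM in WT. *Rpl3* itself stood at 369 and 251 TPM in cKO and at 272 and 329 TPM in WT, overlapping between genotypes, and *Rpl3l* thus made up 0.149% and 0.639% of the pair in cKO and 1.22% and 0.335% in WT.

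The median autosomal member was at 321 and 249 TPM in the cKO samples and at 277 and 353 TPM in the WT samples. All members together made up 2.88% and 2.35% of the TPM in cKO and 2.13% and 3.10% in WT. The genotypes overlapped on both measures. The replicates of one genotype differed in a common direction over nearly the whole set: 72 of the 75 autosomal members were higher in cKO replicate 1 than in cKO replicate 2 (median 1.31-fold), and 71 were higher in WT replicate 2 than in WT replicate 1 (median 1.23-fold). For 66 of the 75 autosomal members a gap between replicates of one genotype exceeded the difference between genotypes. The same count was not taken over all genes tested, so it describes these values and not a trait of the members.

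**Figure D2:**
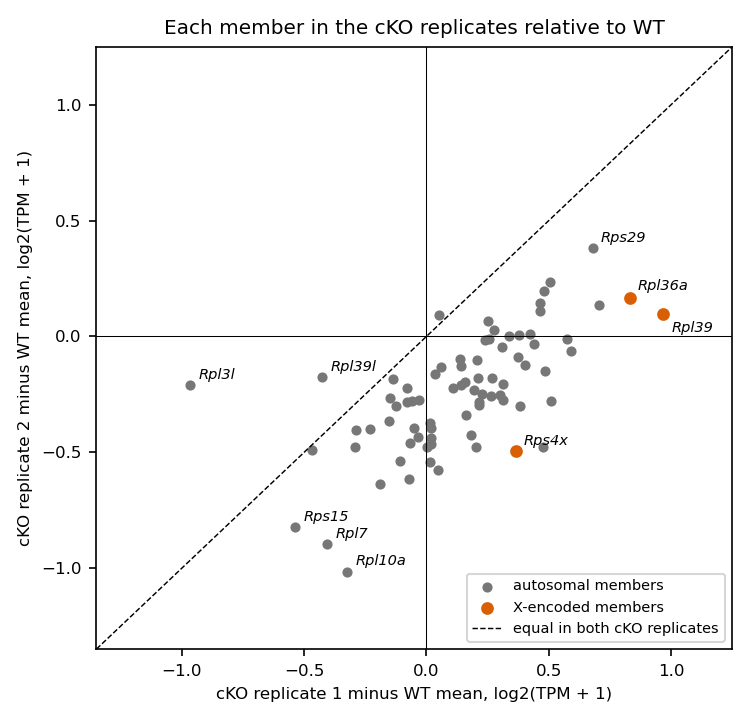
Each point is a member, placed by its log2(TPM + 1) in cKO replicate 1 (horizontal) and cKO replicate 2 (vertical), each minus the WT mean; grey points are autosomal and orange points X-encoded, and the dashed line marks equal values. Of the autosomal points, 72 of 75 lie below the line, and *Rpl36a* (0.83) and *Rpl39* (0.97) lie to the right of every autosomal point, while *Rps4x* (0.36) lies among them.

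The log2 fold changes of the 75 autosomal members centred near 0, with a median of -0.03 and a range of -0.68 to 0.53, against a median of 0.05 over all autosomal genes. Their SD was 0.25, against 0.75 over all autosomal genes and 0.58 over the 1630 autosomal genes outside the members with a mean of at least 100 TPM, a level at which most members lie. Of the 75, 32 were positive and 43 negative, while 43.9% of all genes tested were negative. This split depends on the scaling: it was 39 positive and 36 negative after quantile normalization and 45 and 30 with each sample scaled to its median autosomal member, which moved the median of all genes to -0.11 and 0.18. Both cKO samples lay above both WT samples for 3 autosomal members and below them for 13; over all genes tested these shares were 26.3% and 18.1%. Among the 1630 other autosomal genes at 100 TPM or more, both cKO samples lay above both WT samples for 262 (16.1%) and below them for 564 (34.6%), 95 were called (5.83%) and the median log2 fold change was -0.15.

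The 40S and 60S genes had similar values. The median log2 fold change was 0.02 over the 31 members of the 40S and -0.09 over the 47 of the 60S, with 0 calls by limma in either and 1 and 0 members at an unadjusted p under 0.05. In cKO the median 40S member was at 333 and 249 TPM and in WT at 278 and 334 TPM. The median 60S member was at 298 and 233 TPM in cKO and at 272 and 329 TPM in WT. Each subunit overlapped between genotypes. The 25 autosomal members with under 50% of their 31-base stretches unique had a median of -0.19, and the 50 with at least 50% unique had a median of -0.01.

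The lowest log2 fold change was that of *Rps15*, a protein of the 40S head near the decoding centre, with 246 and 201 TPM in cKO and 320 and 398 TPM in WT. Both cKO values are below both WT values, and the difference of -0.68 ± 0.26 (SE; 95% interval -1.30 to -0.06) missed the threshold after adjustment (adjusted p = 0.325). *Rpl10a*, which forms the mobile stalk beside the tRNA exit site, had 119 and 73.2 TPM in cKO and 151 and 147 TPM in WT (log2 fold change -0.67 ± 0.29, SE, adjusted p = 0.386). It became the only member called lower when cKO replicate 1 was left out (log2 fold change -1.02, adjusted p = 0.190). *Rpl7* stood at 327 and 233 TPM in cKO and at 407 and 464 TPM in WT, and *Rpl7a* at 206 and 202 TPM in cKO and at 249.8 and 324 TPM in WT. For these 2 genes, too, both cKO samples were the lower ones, with log2 fold changes of -0.65 ± 0.28 and -0.48 ± 0.25 (SE), neither called. *Rpl7a* has only 15.0% and *Rpl7* 43.1% of its 31-base stretches to itself. *Rpl3l*, also among the lowest by its log2 fold change of -0.59, is near the floor of detection.

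At the other end, *Rps29*, a zinc-binding protein of the 40S head, had 465 and 378 TPM in cKO and 251 and 334 TPM in WT. Both cKO samples were higher, but the difference of 0.53 ± 0.27 (SE) was not called (adjusted p = 0.468). *Rps28* had 612 and 412 TPM in cKO and 326 and 431 TPM in WT, which overlap. *Rps20* had 277 and 227 TPM in cKO and 182 and 216 TPM in WT, without overlap (log2 fold change 0.34 ± 0.25, SE). *Rps27l*, a p53-responsive relative of *Rps27*, had 556 and 461 TPM in cKO and 347 and 441 TPM in WT, also without overlap (0.37 ± 0.27, SE, adjusted p = 0.629). *Rps27* itself was at 584 and 456 TPM in cKO and at 356 and 503 TPM in WT. *Rps27l* thus provided 48.8% and 50.2% of the pair in cKO and 49.4% and 46.7% in WT, a near-even division in every sample. *Rps26*, at the mRNA exit, completed the upper 6 with 339.6 and 272 TPM in cKO and 203 and 298 TPM in WT.

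The X-encoded members lay at the low end of the set in both genotypes. *Rps4x*, a 40S protein, stood at 61.6 and 33.4 TPM in cKO and at 41.2 and 55.0 TPM in WT. The cKO samples held both the highest and the lowest of these values, and the log2 fold change was -0.07 ± 0.36 (SE; 95% interval -0.92 to 0.79; adjusted p = 0.965). *Rpl36a*, a 60S protein near the tRNA exit site, stood at 76.6 and 48.0 TPM in cKO and at 38.9 and 46.7 TPM in WT. The cKO values are the 2 higher ones, by a narrow margin in replicate 2, and the difference of 0.50 ± 0.31 (SE; 95% interval -0.24 to 1.24) was not called (adjusted p = 0.560). *Rpl39*, which lines the tunnel through which the nascent chain leaves, stood at 44.6 and 24.0 TPM in cKO and at 21.0 and 23.8 TPM in WT. Again both cKO samples were above both WT samples, replicate 2 only just, with a difference of 0.53 ± 0.37 (SE; 95% interval -0.35 to 1.41; adjusted p = 0.607).

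X-linked genes as a whole give the scale for these values. Of 782 X-linked genes tested, 216 were called higher in the cKO (27.6%), 0 were called lower, and in 72.5% both cKO samples lay above both WT samples. The median X-linked gene was at 14.2 and 7.23 TPM in cKO and at 2.81 and 2.89 TPM in WT, a median log2 fold change of 1.03. That value lies above the whole 95% interval of *Rps4x* and inside the intervals of *Rpl36a* and *Rpl39*. *Rps4x* had a smaller log2 fold change than 726 of the X-linked genes, *Rpl36a* than 562 and *Rpl39* than 553. The 3 genes were also unusual in WT cells, where only 32, 41 and 79 X-linked genes had a higher mean than *Rps4x*, *Rpl36a* and *Rpl39*. Of the 90 other X-linked genes with a WT mean of at least 20 TPM, 33 were called higher (36.7%), and their median log2 fold change was 0.91. Whether the 3 members differ from other X-linked genes was not tested.

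Set against the autosomal members, the median X-encoded member was at 19.2% and 13.4% of the median autosomal member in cKO samples and at 14.0% and 13.2% in WT samples. The gene at the median was *Rps4x* in both cKO samples and *Rpl36a* in both WT samples, so these shares compare different genes. Taken singly, *Rps4x* was at 19.2% and 13.4% in cKO and at 14.8% and 15.5% in WT. *Rpl36a* was at 23.8% and 19.2% in cKO and at 14.0% and 13.2% in WT. *Rpl39* was at 13.9% and 9.63% in cKO and at 7.57% and 6.72% in WT. For *Rpl36a* and *Rpl39* both cKO samples were the higher ones, and for *Rps4x* the genotypes overlapped. Over sums, the X-encoded members gave 0.637% and 0.474% of the members' TPM in cKO and 0.428% and 0.430% in WT, both cKO samples being higher. The mean ratio of X-encoded to autosomal median was 1.20 times as high in cKO as in WT, within the error of ± 0.30 from the replicates. This ratio sets *Rps4x* in cKO against *Rpl36a* in WT and so is not the change of any 1 gene. Leaving out cKO replicate 1 gave 0.986 and leaving out cKO replicate 2 gave 1.41. With sums over members in place of medians the ratio was 1.30. With 2 samples against 2 an exact two-sided permutation test cannot give a p below 0.33, and none was run. Without cKO replicate 2 both *Rpl36a* (log2 fold change 0.83, adjusted p = 0.157) and *Rpl39* (0.97, adjusted p = 0.135) were called higher, while 2586 genes in all were then called higher. Without cKO replicate 1 their log2 fold changes were 0.17 and 0.10.

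Other markers also stood apart in cKO replicate 1, where all 3 X-encoded members were highest. The summed level of 6 Leydig cell markers was 815 and 135 TPM in cKO and 98.6 and 261 TPM in WT, led by *Insl3* at 557 TPM in cKO replicate 1. The sum of the 5 of 6 listed erythroid markers in the table was 238 and 53.7 TPM in cKO and 39.3 and 69.7 TPM in WT. That of 15 spermatid markers was 1882 and 896 TPM in cKO and 549.8 and 582 TPM in WT. The difference was larger at the median spermatid marker, with 86.2 and 5.30 TPM in cKO and 0.539 and 0.847 TPM in WT (median log2 fold change 3.50). Spermatogonial markers (12) summed to 629.5 and 387 TPM in cKO and 277 and 372 TPM in WT, and Sertoli cell markers (8) to 1799 and 1638 TPM in cKO and 1714 and 1505 TPM in WT. The 6 macrophage markers summed to 103 and 56.3 TPM in cKO and 41.9 and 91.5 TPM in WT. Of these lists, 4 of 15 spermatid markers were called higher and the others gave 0 calls by limma (at an unadjusted p under 0.05, 1 Leydig, 2 erythroid, 1 spermatogonial, 0 Sertoli and 0 macrophage genes). All 10 pachytene markers were detected in each sample, with sums of 4159.8 and 6032 TPM in cKO and 5993 and 6997 TPM in WT, 3 being called higher and 1 lower. The median pachytene marker was at 201 and 266 TPM in cKO and at 372 and 405 TPM in WT (median log2 fold change -0.65), 7 being negative and 3 positive. Both cKO samples lay below both WT samples for 5 of the 10 and above them for 3, against 18.1% and 26.3% of all genes tested. In bulk RNA fewer cells of a type and less RNA per cell cannot be told apart, and the part of these cells or stages in the levels of *Rps4x*, *Rpl36a* and *Rpl39* was not tested.

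The autosomal relatives of the X-encoded members were strongly expressed in both genotypes. *Rpl39l*, a testis-enriched form of *Rpl39*, had 273 and 325 TPM in cKO and 323 and 419 TPM in WT, the higher cKO value lying just above the lower WT value (log2 fold change -0.30 ± 0.27, SE, adjusted p = 0.705). It exceeded *Rpl39* 6.12- and 13.6-fold in cKO and 15.4- and 17.6-fold in WT. Both cKO ratios are the lower ones, and cKO replicate 2 is much nearer to WT. *Rpl36al* had 224 and 242 TPM in cKO and 219.9 and 271 TPM in WT, with a log2 fold change of -0.07 ± 0.24 (SE), and exceeded *Rpl36a* 2.93- and 5.05-fold in cKO and 5.65- and 5.80-fold in WT. Its ratios, too, were lower in both cKO samples. *Rps4l* had 337 and 282 TPM in cKO and 325 and 410.4 TPM in WT, and exceeded *Rps4x* 5.48- and 8.43-fold in cKO and 7.90- and 7.47-fold in WT, where the genotypes overlapped. As a gene not annotated as protein-coding, *Rps4l* was compared only in the fit over all biotypes (log2 fold change -0.24, adjusted p = 0.794). Expressed as a share of the pair, *Rpl39* made up 14.0% and 6.87% in cKO and 6.10% and 5.37% in WT, *Rpl36a* 25.5% and 16.5% in cKO and 15.0% and 14.7% in WT, and *Rps4x* 15.4% and 10.6% in cKO and 11.2% and 11.8% in WT. None of these ratios was tested.

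**Figure D3:**
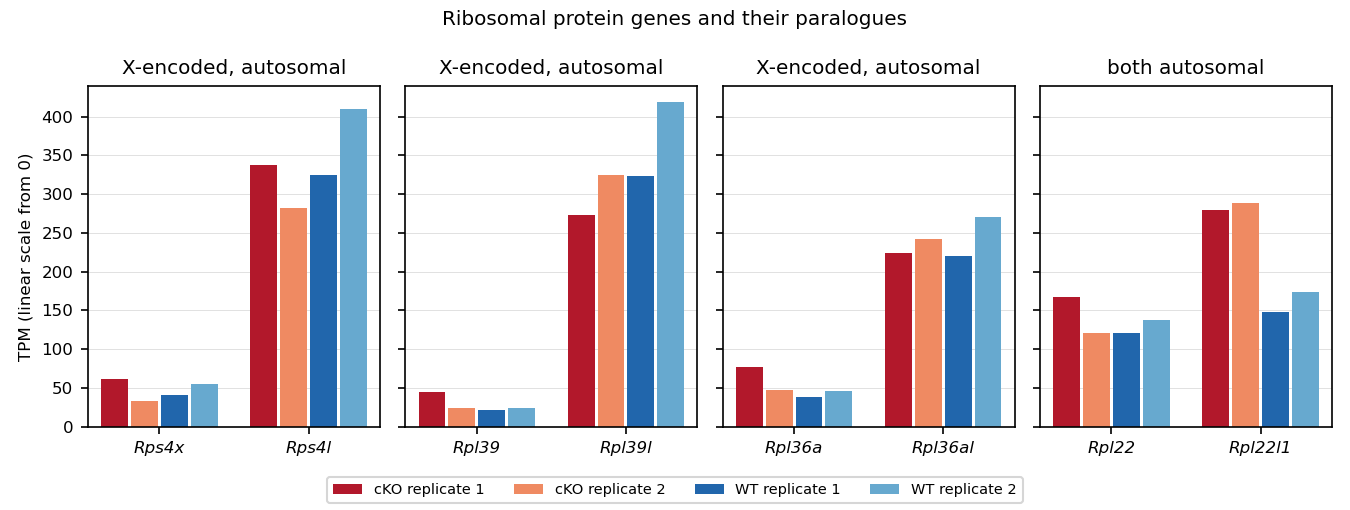
TPM (linear axis from 0) of 4 pairs in each sample, with cKO replicates in red and orange left of WT replicates in blue; in the first 3 panels the left gene is X-encoded and the right one autosomal, and in the last panel both are autosomal. The X-encoded genes reach at most 76.6 TPM, their partners lie between 219.9 and 419 TPM, and *Rpl22l1* is higher in both cKO samples.

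Among the 9 ribosomal genes that the symbol rule misses, *Rpl22l1* came closest to a call. It is a paralogue of *Rpl22* that can take its place in the 60S subunit. *Rpl22l1* stood at 280.1 and 289 TPM in cKO and at 148 and 174 TPM in WT, and the cKO replicates were close to each other and well above WT. Its log2 fold change was 0.82 ± 0.24 (SE; 95% interval 0.26 to 1.38), just short of the threshold (adjusted p = 0.211), and it passed under 5 alternatives, among them quantile normalization (adjusted p = 0.166) and leaving out cKO replicate 2 (adjusted p = 0.154). *Rpl22*, with 168 and 121 TPM in cKO and 121 and 137 TPM in WT, overlapped between genotypes (0.14 ± 0.26, SE). *Rpl22l1* therefore gave 62.6% and 70.4% of the pair in cKO and 55.1% and 55.8% in WT. The coding sequences of the pair are 71.9% identical and share no 31-base stretch, although only 48.8% of the stretches in *Rpl22l1* transcripts are unique.

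The remaining 8 were not called. *Rack1*, a scaffold protein on the 40S subunit, had 156 and 106 TPM in cKO and 189 and 188 TPM in WT, both cKO samples being lower (log2 fold change -0.55 ± 0.27, SE, adjusted p = 0.443). *Fau*, made as a fusion with a ubiquitin-like protein, overlapped between genotypes, with a log2 fold change of 0.19, as did *Rps3a1* (-0.05), *Rpl36al* and *Rpl7l1* (-0.31). *Rps27rt* had 314 and 272 TPM in cKO and 233 and 228 TPM in WT (0.34 ± 0.24, SE), but its coding sequence is identical to that of *Rps27*, so the division of reads between them is uncertain. *Rpl9-ps6* was listed at 0 and 1.04 TPM in cKO and at 2.26 and 4.21 TPM in WT. Named pseudogenes of the members numbered 79 for 39 members, and their summed TPM came to 10.3% and 10.5% of the members' total in cKO and 10.6% and 11.5% in WT. Adding them to their parents left every member uncalled. It brought the ratio of X-encoded to autosomal median, cKO over WT, from 1.20 to 1.02, but the gene at the median can change with this addition. The median log2 fold change of the X-encoded members went the other way, from 0.50 to 0.53.

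Other genes of translation gave a wider view. Of 12 X-linked genes of translation and ribosome biogenesis outside the ribosome itself, 3 were called higher and 0 lower, both cKO samples were above both WT samples for all 12 (72.5% of X-linked genes), and the median log2 fold change was 1.09. *Las1l*, which processes the spacer between rRNAs, had 67.3 and 56.2 TPM in cKO and 17.8 and 16.8 TPM in WT (1.77 ± 0.28, SE, adjusted p = 0.0683). *Tsr2*, a chaperone that delivers *Rps26* protein to the ribosome, had 56.6 and 33.9 TPM in cKO and 10.9 and 14.4 TPM in WT (1.73 ± 0.37, SE, adjusted p = 0.128), and *Ddx3x*, an RNA helicase of initiation, had 45.9 and 34.5 TPM in cKO and 18.0 and 15.1 TPM in WT (1.22 ± 0.31, SE, adjusted p = 0.173). In each the cKO samples were clearly the higher ones, and in WT cells each was below all 3 X-encoded members. Leaving out cKO replicate 1 ended the calls of *Tsr2* (adjusted p = 0.221) and *Ddx3x* (adjusted p = 0.262), and leaving out either WT replicate left no gene in the table called in either direction. On the Y, *Eif2s3y*, which encodes an initiation factor subunit, was at 195 and 99.9 TPM in cKO and at 28.9 and 37.1 TPM in WT and was called higher (2.06 ± 0.36, SE, adjusted p = 0.0833), whereas *Ddx3y* with 37.0 and 17.7 TPM in cKO and 9.45 and 13.2 TPM in WT was not (1.13 ± 0.44, SE, adjusted p = 0.341).

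**Figure D4:**
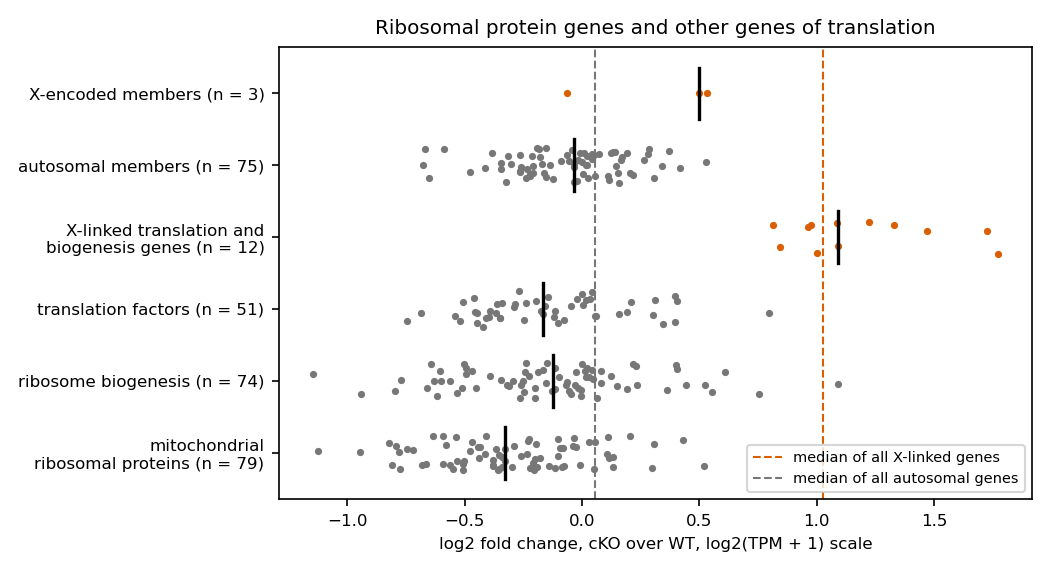
Log2 fold change, cKO over WT on the log2(TPM + 1) scale, of each gene in 6 lists (1 point per gene, black bar for the median), orange for X-linked lists and grey for autosomal ones; dashed lines mark the medians of all X-linked genes (1.03) and all autosomal genes (0.05). The 3 X-encoded members lie at -0.07 to 0.53, left of the 12 other X-linked genes, whose values lie between 0.82 and 1.77.

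The autosomal lists gave few calls. Of 51 translation factors 0 were called by limma (2 at an unadjusted p under 0.05), with a median log2 fold change of -0.16, and the 3 with the smallest p were all lower in both cKO samples: *Eif2b5* (-0.75), *Eif4h* (-0.69) and *Eif3m* (-0.54). Of 74 ribosome biogenesis factors, 1 was called, lower: *Taf1b*, a subunit of the selectivity factor of RNA polymerase I, with 43.1 and 71.9 TPM in cKO and 115 and 135 TPM in WT (-1.14 ± 0.31, SE, adjusted p = 0.191). Its call was lost under 8 alternatives, among them leaving out any sample but cKO replicate 2. The median of that list was -0.12. The 79 mitochondrial ribosomal proteins, which build a separate ribosome, had 0 calls by limma and a median of -0.33. At an unadjusted p under 0.05 there were 12, against 13.6% of all genes tested. Of the 79, 39 were lower in both cKO samples than in both WT samples. That share was 18.1% over all genes tested and 34.6% over the 1630 autosomal genes outside the members at 100 TPM or more. The median of the 79 was at 65.2 and 57.4 TPM in cKO and at 73.6 and 84.7 TPM in WT, without overlap. The gene with the smallest p among them, *Mrpl24*, had 70.8 and 127 TPM in cKO and 203 and 213 TPM in WT (-1.12 ± 0.32, SE, adjusted p = 0.209).

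Some sequence features, which do not depend on expression values, were more frequent in promoter windows of the members than in all promoter windows. RefSeq windows of 250 bases before to 50 after the start (GRCm38.p6) were matched for 58 of 78 members, in 70 windows. A run of at least 8 pyrimidines (C or T) on the sense strand, within 20 bases of the start on either side, was found in 42.9% of member windows. Over all 32851 windows the share was 16.0%. mRNAs of the translation machinery are known to begin with pyrimidines, but a run counted here may lie before the start and so outside the mRNA. The letters CCGGAA, on either strand, occurred in 47.1% of member windows against 14.9% of all, and GCCATNTT, on either strand, in 14 of the 70 against 6.05%. Matches to different motifs may overlap. Of the 3 X-encoded windows, 1 had a pyrimidine run, 1 had CCGGAA and 0 had GCCATNTT. That run, in *Rpl39*, lies before the RefSeq start.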

How the data were processed

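Per the methods of the study, the authors aligned 75-base single reads to the mouse transcriptome (GRCm38) with kallisto 0.44.0 and aggregated transcripts to genes with sleuth 0.30.0. The deposited TPM of the 4 RNA-seq samples was used as a signal, since its columns sum to between 942186 and 1109725 and not to a common total. Columns of the authors' genotype means and of their own test (p, q, estimate and error) were not used, nor were 4 ChIP-seq samples, whose processed values were not analysed here. The comparison took the 19462 protein-coding genes whose cKO or WT mean exceeded 0.1 TPM, on the log2(TPM + 1) scale, and used limma (3.58.1, under R 4.3.3) with lmFit and trended eBayes. P-values were adjusted by Benjamini-Hochberg over all of them, with a threshold of 0.2. A pseudocount of 1 understates changes of low genes. Intervals are 95% intervals from the moderated fit (2 residual and 4.76 prior degrees of freedom). The code was tested on simulated data.

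Genes are named if they are *Setdb1*, X-encoded, called, in a paralogue pair, among the 6 highest or lowest autosomal log2 fold changes or the 3 highest or lowest levels, stalk or ubiquitin members, ribosomal genes outside the symbol rule, or, in the other lists, called or among the 3 smallest p; a few that the rule names are not reported here. The members and lists were chosen with earlier results of these data known. Uniqueness of 31-base stretches was counted over GENCODE M21 protein-coding and pseudogene transcripts. Python 3.11.15 and matplotlib 3.10.9 were used. Alternatives were other pseudocounts, filters, biotypes, scalings, no trend, a replicate block, added pseudogenes and leaving out each sample.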

Additional observations from a re-analysis of the deposited data

How the results depend on the processing

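With any of the alternatives that keep all 4 samples no member was called in either direction. Leaving out one sample gave 0 to 2 members called higher (2 without cKO replicate 2, both X-encoded, hence 0 to 2 X-encoded members) and 0 to 1 called lower (1 autosomal, without cKO replicate 1). For the members as a set the median log2 fold change was -0.03. It was between -0.05 and 0.11 under the alternatives that keep all 4 samples, within the spread between replicates. When one sample was left out it was between -0.24 and 0.17, so its sign depended on the sample. The ratio of X-encoded to autosomal medians, which sets *Rps4x* in cKO against *Rpl36a* in WT, was then 0.986 to 1.41. Shifts from leaving out a sample are bounded by the gap between replicates, so their lying within that spread is no test of stability. Over all protein-coding genes 678 were higher and 217 lower. The higher count was 430 after quantile normalization and 392 without a trend, and 0 to 2586 when one sample was left out. The lower count was 56 without a trend, 69 with each sample scaled to its median autosomal member (an alternative chosen after seeing the data), and 0 to 1251 when one sample was left out (136 without cKO replicate 1). The cause was not tested. The replicate numbers do not pair the samples by any label, and deviations of the samples numbered 1 were uncorrelated (r = 0.03); with the replicate number as a block 1091 genes were higher and no member was called. The limit is 2 samples a genotype: the 95% interval of a member was 1.30 log2 units wide at the median.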
